A study of Bos taurus with 10 samples.

Results

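Glycolysis, lactate and pyruvate fate are represented here by 8 genes (TPI1, PGK1, ENO1, LDHA, PDK4, PC, MDH1 and MDH2), out of 4366 genes that could be named on a bovine cDNA microarray. They were taken by their current gene symbol, and all 8 had a value on all 10 arrays. Together they occupied 9 printed elements of 5472 named ones: MDH2 was printed as 2 clones and each other gene as 1. The tissues of the cow (Bos taurus) were liver, mammary gland and 3 adipose depots: mesenteric, omental and subcutaneous. All were taken at peak lactation, and the labels name no treatment. The labels give neither the number of cows behind a sample nor their age or breed. RNA of each tissue was hybridised on 2 arrays of opposite dye orientation against the same reference standard, which was mixed from tissues.

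Glycolysis splits glucose into pyruvate in the cytosol. Pyruvate then has several fates: reduction to lactate, oxidation to acetyl-CoA in the mitochondrion, or carboxylation to oxaloacetate, the first step from lactate and pyruvate back towards glucose. Ruminants absorb little glucose from the gut, so the liver makes it, and the lactating udder takes up much of it to form lactose. Adipose tissue of ruminants builds fatty acids mainly from acetate rather than from glucose.

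A level is given below as the log2 ratio of tissue over reference, centred on the median of its array, so that 1 unit is a 2-fold change. It depends on the amount in the reference too, so levels of different genes do not rank their amounts of RNA in a tissue. The ± after a mean over both arrays is the distance of either array from that mean. It measures the dye orientation error and holds no spread between animals, because both arrays of a tissue carried RNA of 1 sample. No test between tissues was therefore possible. In place of a test, a difference between tissues passed the size rule when its mean was at least 1 log2 unit and it had the same sign in both dye orientations. Each difference was taken within a dye orientation, so that an error of a spot's dye balance cancels.

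Between 15970 and 16245 of 16416 spots had a value on an array, and duplicate spots of an element correlated at 0.83 to 0.92. The direction of the ratio, Cy5 over Cy3, is likely but not stated. It rests on the design text, which treats the ratios as measures of relative expression, and on hepatocyte and mammary epithelial markers, which stood high in their own tissue when read this way and are therefore no independent check of it. With the ratio turned, every level and difference below changes sign. Of 5 hepatocyte markers, 4 would then lie past the size rule with liver below mammary gland, among them RBP4 (199-fold), and 0 with liver above. All 4 mammary epithelial markers would lie past it with mammary gland below liver, among them MFGE8 (103-fold). Genes were named through a print layout rebuilt from the agreement of clones of one gene, so that a single clone can carry a wrong name. That agreement is the same in either direction of the ratio. The tissues were then set against their defining markers. Of the 5 hepatocyte genes measured, 4 were at least 2-fold over the reference in liver. APOA1 stood at 0.85 there and was highest in subcutaneous adipose tissue (1.86). All 4 mammary epithelial genes measured were at least 2-fold over the reference in mammary gland, where each was highest. XDH also reached that level in all other tissues, with 3.01 in liver and 2.67 in subcutaneous adipose tissue. KRT19 reached it in liver (1.29) and mesenteric adipose tissue (2.35). The 3 adipocyte genes measured were at least 2-fold over the reference in mesenteric and omental adipose tissue. In the subcutaneous sample CEBPA reached that level (1.12), while LIPE stood at -0.34 and CAV1 at -0.55. All 10 myeloid markers measured were at least 2-fold over the reference in that sample, with levels of 1.71 to 6.63. Their range was -2.30 to 1.80 in mesenteric and -2.00 to 2.23 in omental adipose tissue. Subcutaneous adipose tissue was therefore compared with the visceral depots (the mean of mesenteric and omental), and the mean of all 3 depots was used only as an alternative. In whole tissue, fewer cells of a type and less RNA per cell cannot be told apart. None of the skeletal muscle or red blood cell markers on the fixed lists was measured under a name.

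Of the 3 genes of lower glycolysis, TPI1 and PGK1 varied least over the tissues. TPI1 is the triose phosphate isomerase that interconverts the products of aldolase. Its levels are given for the array with the tissue in Cy3 and then in Cy5, as for all genes below. They were -1.18 and -1.33 in liver and -1.73 and -1.63 in mammary gland. In adipose tissue they were -0.77 and -0.87 (mesenteric), -0.80 and -1.01 (omental) and -0.70 and -0.73 (subcutaneous). Mammary gland was lowest and liver next, and both lay apart from the adipose samples. Mesenteric and omental adipose tissue overlapped. PGK1, the phosphoglycerate kinase that makes the first ATP of the pathway, stood at -1.35 and -1.44 in liver, -0.60 and -1.68 in mammary gland, -1.41 and -1.43 in mesenteric, -1.24 and -1.08 in omental and -0.97 and -0.82 in subcutaneous adipose tissue. The mammary arrays of PGK1 disagreed by more than its means ranged over the tissues (0.52), so mammary gland has no settled place in its order. Their duplicate spots were close, as no pair of PGK1 spots on any array differed by more than 0.15.

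ENO1, the enolase that forms phosphoenolpyruvate, was below the reference in every tissue and furthest below it in mammary gland. Its level was -1.04 and -0.96 in liver, -2.06 and -2.33 in mammary gland, -1.79 and -1.96 in mesenteric, -1.47 and -1.75 in omental and -0.21 and -0.47 in subcutaneous adipose tissue. In the order subcutaneous adipose, liver, omental adipose, mesenteric adipose and mammary gland no neighbours overlapped, and the mammary mean was -2.19 ± 0.14. The range of its means was 1.86 log2 units, exceeded by 524 genes (12.2%).

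LDHA, the lactate dehydrogenase subunit that predominates where pyruvate is reduced to lactate, had the widest range of the 8 genes. Its level was -2.89 and -3.11 in liver, -4.53 and -4.74 in mammary gland, -3.56 and -4.03 in mesenteric, -3.14 and -3.44 in omental and -0.10 and -0.20 in subcutaneous adipose tissue. Subcutaneous adipose tissue lay close to the reference, and the other 4 tissues lay far below it. The tissues took the same order as for ENO1, and again no neighbours overlapped. The mammary mean of -4.64 ± 0.10 was 24.9-fold under the reference. It was the lowest ratio among 4307 genes with a value on all arrays, which is no ranking of RNA amounts. LDHA held place 4 from the bottom in mesenteric adipose tissue, 6 in omental adipose tissue and 21 in liver, but place 1614 in the subcutaneous sample. Over the 5 tissues its means ranged over 4.48 log2 units, and 45 genes (1.04%) had a wider range. The median range of all genes was 0.73. Over the 10 arrays LDHA and ENO1 correlated at r = 0.94, a description that rests on 5 tissues, since the arrays of a tissue share their RNA.

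PDK4, the kinase that shuts off the pyruvate dehydrogenase complex and spares pyruvate from oxidation, was the member highest above the reference. It stood at 1.08 and 1.37 in liver, 0.85 and 1.36 in mammary gland, 2.13 and 2.30 in mesenteric, 2.07 and 2.47 in omental and -0.36 and 0.03 in subcutaneous adipose tissue. The visceral depots were highest and overlapped each other, liver and mammary gland overlapped below them, and subcutaneous adipose tissue was lowest and apart from all. The omental mean of 2.27 ± 0.20 was 4.82-fold over the reference and, as a ratio to the reference, at place 34 from the top of 4307 genes. The range over tissues was 2.43 log2 units, exceeded by 284 genes (6.59%). The PDK4 clone lies on source plate 1, whose clones of shared genes agreed least among the 20 plates kept (median cosine 0.38), which bears on how far its name can be relied on.

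PC, the mitochondrial pyruvate carboxylase that feeds gluconeogenesis and refills the citric acid cycle, was nearly level. It stood at -0.81 and -0.40 in liver, -0.87 and -0.91 in mammary gland, -0.87 and -0.93 in mesenteric, -0.82 and -0.78 in omental and -0.97 and -1.13 in subcutaneous adipose tissue. The liver mean was highest at -0.60 ± 0.21, and its arrays overlapped those of omental adipose tissue. The means ranged over 0.45 log2 units, and 77.1% of genes ranged more widely.

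MDH1, the cytosolic malate dehydrogenase of the malate and aspartate shuttle, was highest in the visceral depots. It stood at -1.12 and -1.11 in liver, -1.17 and -1.26 in mammary gland, -0.52 and -0.58 in mesenteric, 0.09 and -0.26 in omental and -1.22 and -1.35 in subcutaneous adipose tissue. Omental adipose tissue was highest, mesenteric adipose tissue next, and each was apart from its neighbour in the order. Mammary gland and subcutaneous adipose tissue overlapped at the bottom, with means of -1.22 and -1.28. The range over tissues was 1.20 log2 units, exceeded by 26.2% of genes.

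**Figure D1:**
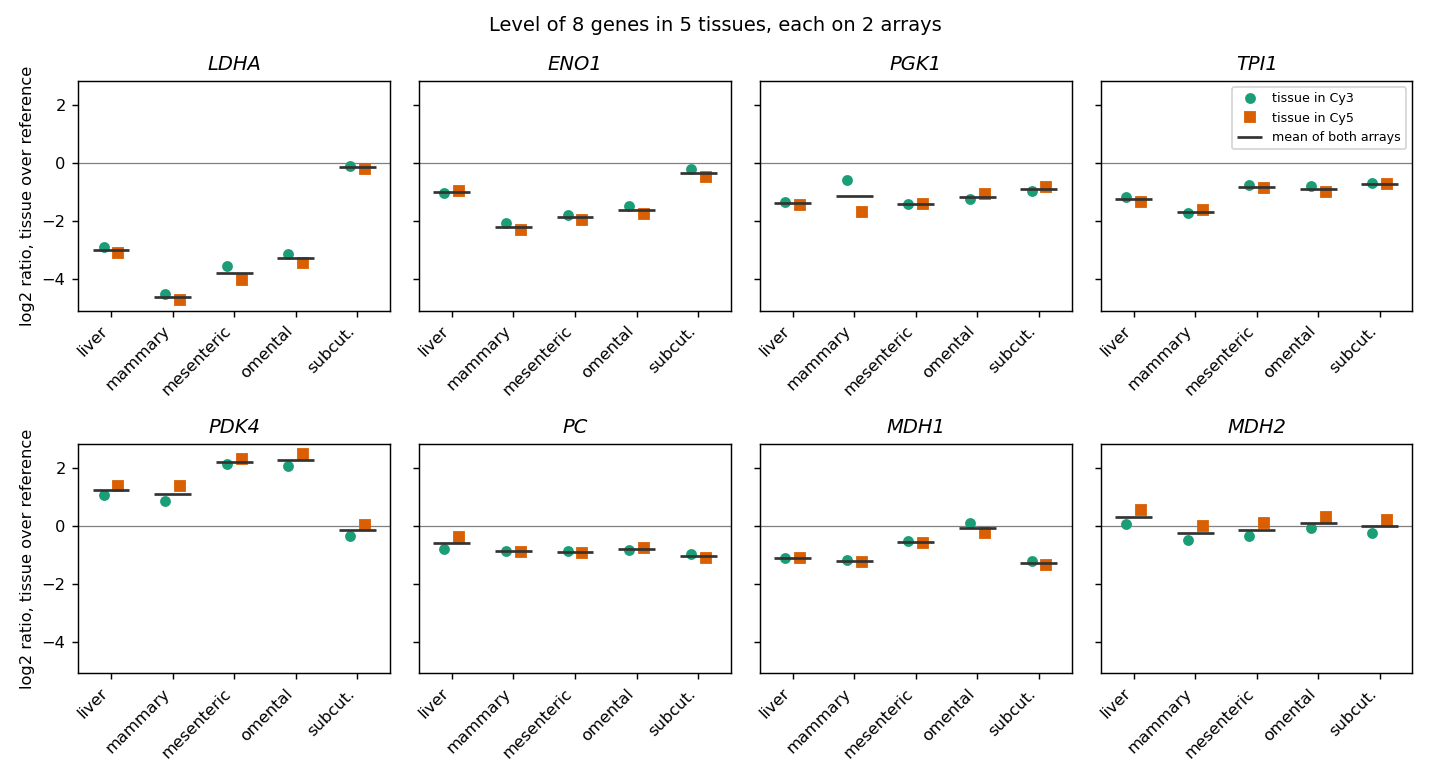
Level of the 8 genes as the log2 ratio of tissue over reference (vertical axis) in 5 tissues, with circles for the array carrying the tissue in Cy3, squares for Cy5 and bars for their mean. LDHA spans -4.64 in mammary gland to -0.15 in subcutaneous adipose tissue, PDK4 is lowest in subcutaneous adipose tissue (-0.16), and the mammary arrays of PGK1 lie apart (-0.60 and -1.68).

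MDH2, the mitochondrial malate dehydrogenase of the citric acid cycle, stood nearest to the reference, between -0.24 ± 0.24 in mammary gland and 0.31 ± 0.24 in liver. All neighbouring tissues overlapped. That mean hides 2 clones which disagreed. The first clone stood at 0.19 and 0.11 in liver, -0.93 and -1.09 in mammary gland, -0.61 and -0.55 in mesenteric, 0.01 and -0.10 in omental and -0.09 and -0.05 in subcutaneous adipose tissue. On it, liver exceeded mammary gland by 1.16 ± 0.04. The second clone stood at -0.06 and 0.99 in liver, -0.05 and 1.09 in mammary gland, -0.10 and 0.74 in mesenteric, -0.19 and 0.68 in omental and -0.38 and 0.44 in subcutaneous adipose tissue. There the Cy5 array was the higher in every tissue, and liver and mammary gland differed by -0.06 ± 0.05. Of these clones the first alone passed the size rule between liver and mammary gland, and their mean did not (0.55). Between mammary gland and visceral adipose tissue the clones took opposite sides (-0.70 and 0.24). So they did between mammary gland and subcutaneous adipose tissue (-0.94 and 0.49). Subcutaneous against visceral (0.24 and -0.25) and mesenteric against omental adipose tissue (-0.53 and 0.07) split them too. The ± of an MDH2 difference below does not hold this disagreement. Which clone reports MDH2, and whether both do, was not tested.

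**Figure D2:**
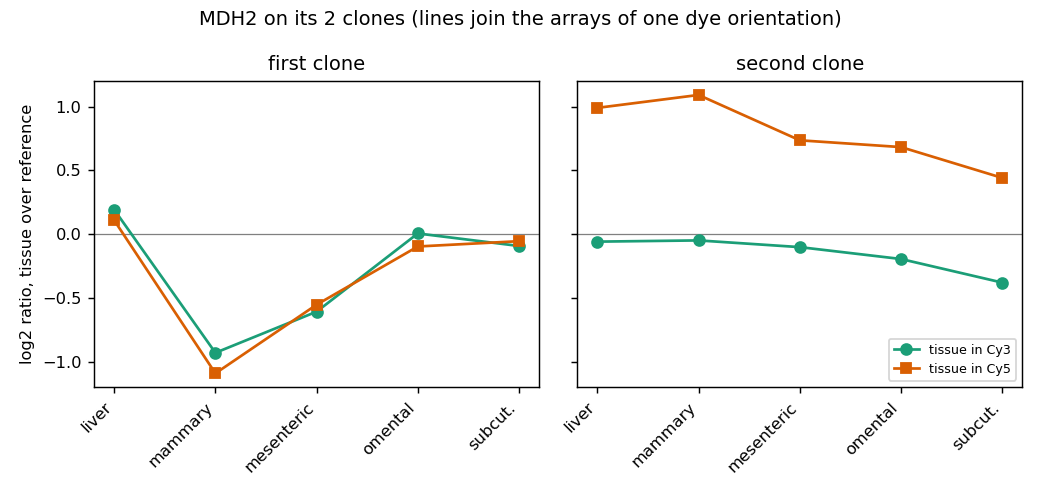
Log2 ratio of tissue over reference (vertical axis) for the 2 clones of MDH2 in 5 tissues, with lines joining the arrays of one dye orientation. The first clone is lowest in mammary gland on both arrays (-0.93 and -1.09), whereas the second runs nearly level within a dye and separates by dye, for example -0.06 and 0.99 in liver.

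In all, 7 comparisons between tissues were made, and 13 of the 56 differences of the 8 genes passed the size rule, where the share of all genes past it ran from 1.41% to 17.6% by comparison. LDHA and PDK4 passed in 5 comparisons each and ENO1 in 3, and the other 5 genes passed in none. The comparisons share samples, so these calls are not independent of one another. The sign differed between dye orientations in 5 of the 56 differences, 3 of them for PGK1.

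The comparison of liver with mammary gland sets the organ that makes glucose from lactate and other precursors against the one that draws on it for lactose. LDHA was higher in liver by 1.63 ± 0.01 log2 units (3.10-fold) and ENO1 by 1.19 ± 0.18 (2.28-fold). These were 2 of 8 genes higher in liver and 0 lower. Among 4325 genes 13.8% passed in either direction: 404 (9.34%) with liver above and 192 (4.44%) with mammary gland above, or 303 and 301 without centring. MDH2 stood at 0.55 ± 0.00, TPI1 at 0.42 ± 0.12, PC at 0.29 ± 0.23, PDK4 at 0.12 ± 0.11 and MDH1 at 0.10 ± 0.05. PGK1 stood at -0.26 ± 0.50, with opposite signs in the 2 dye orientations. The median of the 8 genes was 0.36 and that of all genes -0.01. Without centring the median of all genes moved by -0.22, and ENO1 (0.98) then missed the rule. Of 5 hepatocyte markers 4 were higher in liver and 0 lower, and 4 of 4 mammary epithelial markers were lower. Of 10 myeloid markers 2 were higher in liver and 1 lower. Their part in the LDHA and ENO1 differences was not tested.

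Liver and visceral adipose tissue differed past the rule in 1 of 8 genes. PDK4 was lower in liver, with a difference of -1.02 ± 0.00 (2.03-fold), just past the limit. Among all 4330 genes 13.4% passed, 321 (7.41%) with liver above and 258 (5.96%) with liver below. With the omental Cy5 array left out, the PDK4 difference was -0.98 and missed the rule, and against the mean of all 3 depots it was -0.22. ENO1 stood at 0.74 ± 0.15 and LDHA at 0.54 ± 0.08, both with liver above, and MDH1 at -0.80 ± 0.11 and TPI1 at -0.39 ± 0.00 with liver below. After quantile normalisation ENO1 reached 1.01 and passed. Against the mean of all 3 depots LDHA changed sign, to -0.59, and ENO1 stood at 0.27. Of the 3 adipocyte markers 2 were lower in liver (median -1.69), and 1 of 10 myeloid markers was higher and 1 lower, and their part in the PDK4 difference was not tested. The PC difference was 0.25 ± 0.21 and that of MDH2 0.32 ± 0.03. PGK1 stood at -0.11 ± 0.08. The median of the 8 genes was 0.07, against -0.03 for all genes.

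Mammary gland lay below visceral adipose tissue in LDHA, with a difference of -1.09 ± 0.09 (2.13-fold), and in PDK4, with -1.14 ± 0.11 (2.20-fold). That made 2 of 8 genes lower and 0 higher. Among 4318 genes 9.59% passed, 142 (3.29%) higher and 272 (6.30%) lower in mammary gland, or 186 and 189 without centring. MDH1 at -0.90 ± 0.06, TPI1 at -0.82 ± 0.13 and ENO1 at -0.45 ± 0.02 lay on the same side without passing. MDH2 stood at -0.23 ± 0.04, PC at -0.04 ± 0.01 and PGK1 at 0.15 ± 0.58. The median of the 8 genes was -0.63, and that of all genes -0.02. Both calls were lost without centring, where all genes moved by 0.17 and LDHA stood at -0.93 and PDK4 at -0.97. LDHA also missed the rule without the omental Cy5 array (-0.95), and PDK4 against the mean of all 3 depots (-0.33), where LDHA stood at -2.22 and passed. All 3 measured adipocyte markers were lower in mammary gland than in visceral adipose tissue (median -1.57), as were 3 of 10 myeloid markers (median -0.48). Their part in the LDHA and PDK4 differences was not tested.

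**Figure D3:**
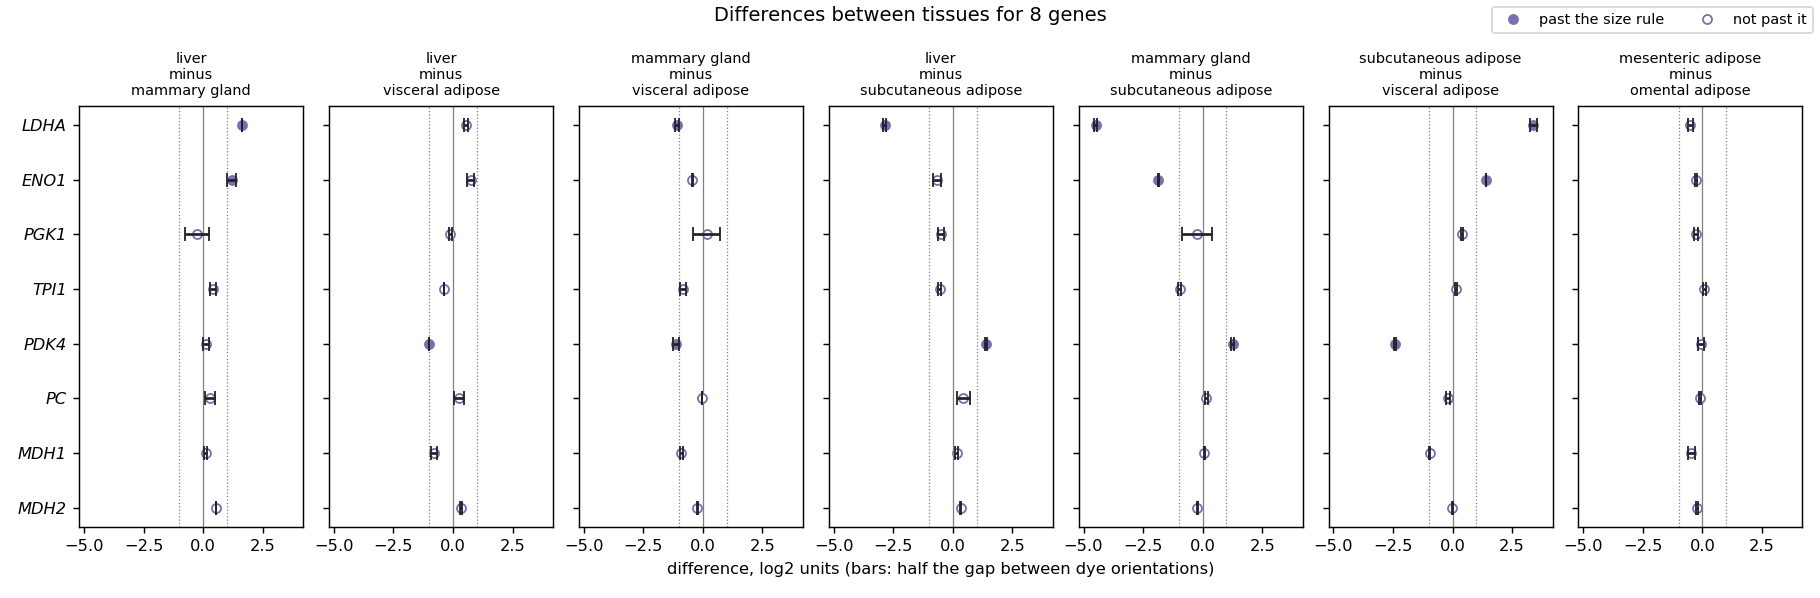
Difference between tissues in log2 units (horizontal axis) for the 8 genes in 7 comparisons, with filled points past the size rule, open points not past it, bars for the distance of either dye orientation from the mean, and dotted lines at 1 log2 unit. LDHA and PDK4 take opposite sides wherever subcutaneous adipose tissue is compared, for example 3.39 and -2.40 against visceral adipose tissue.

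Subcutaneous and visceral adipose tissue differed most in LDHA and PDK4, on opposite sides. LDHA was 3.39 ± 0.15 log2 units (10.5-fold) higher in the subcutaneous sample, at place 14 among 4332 genes ordered from the highest difference. ENO1 was higher by 1.41 ± 0.02 (2.65-fold). PDK4 was lower, with a difference of -2.40 ± 0.05 (5.29-fold), at place 11 from the lowest. Past the rule were thus 2 genes higher and 1 lower of 8. Among all genes 9.95% passed, 270 (6.23%) higher and 161 (3.72%) lower, or 858 and 40 without centring, which moved the median of all genes by 0.63. LDHA, ENO1 and PDK4 each passed under all 7 alternatives tried for this comparison, with LDHA from 3.25 to 4.02, ENO1 from 1.39 to 2.04 and PDK4 from -2.56 to -1.78. MDH1 stood at -0.96 ± 0.04 and missed the limit narrowly. It passed after quantile normalisation (-1.12) and on the Cy3 arrays alone, but stood at -0.34 without centring. PGK1 at 0.39 ± 0.04, TPI1 at 0.15 ± 0.06, PC at -0.20 ± 0.07 and MDH2 at -0.01 ± 0.01 did not pass, although PGK1 did without centring (1.02). The MDH2 value averages clones at 0.24 and -0.25. The median of the 8 genes was 0.07, and that of all genes 0.01.

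Markers of other cells moved with this comparison. All 10 measured of the 15 myeloid markers listed were higher in the subcutaneous sample, with a median difference of 3.64 and values from 1.41 ± 0.09 for CD14 to 5.33 ± 0.09 for S100A12. Both measured T cell markers were higher, with a median of 1.79. Of the 3 adipocyte markers measured 2 were lower, with a median of -1.95. Their part in the LDHA, ENO1 and PDK4 differences was not tested. The other 7 genes of the adipocyte list could not be read under a name here.

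Mammary gland and liver were each compared with the subcutaneous sample as well, which these comparisons share with the preceding one. Mammary gland lay below it in LDHA by a difference of -4.48 ± 0.06 (22.4-fold), at place 12 of 4331 from the lowest, and in ENO1 by -1.86 ± 0.01 (3.62-fold). PDK4 was higher in mammary gland, at 1.27 ± 0.07 (2.41-fold). TPI1 stood at -0.96 ± 0.07, PGK1 at -0.24 ± 0.62, MDH2 at -0.22 ± 0.03, PC at 0.16 ± 0.06 and MDH1 at 0.07 ± 0.02. These were 1 gene higher and 2 lower of 8. Among all genes 13.9% passed, 156 (3.60%) higher and 448 (10.3%) lower in mammary gland, or 78 and 947 without centring, which moved their median by -0.46. On the Cy3 arrays alone TPI1 passed at -1.03, as it did without centring at -1.42, whereas it stood at -0.60 after quantile normalisation.

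Liver lay below subcutaneous adipose tissue in LDHA, at -2.85 ± 0.06 (7.21-fold), and above it in PDK4, at 1.39 ± 0.05 (2.61-fold), that is 1 gene of 8 in each direction. Among 4347 genes 17.6% passed, 347 (7.98%) higher and 419 (9.64%) lower in liver, or 164 and 1374 without centring, which moved their median by -0.68. The ENO1 difference was -0.67 ± 0.17, with TPI1 at -0.54 ± 0.06, PGK1 at -0.50 ± 0.12, PC at 0.45 ± 0.29, MDH2 at 0.33 ± 0.03 and MDH1 at 0.16 ± 0.07. Without centring PDK4 fell under the limit against both organs, at 0.81 for mammary gland and 0.71 for liver, and ENO1, PGK1 and TPI1 passed between liver and subcutaneous adipose tissue (-1.34, -1.18 and -1.22). Myeloid markers moved here too: 9 of 10 were lower in mammary gland and 9 of 10 lower in liver than in the subcutaneous sample, with medians of -4.64 and -3.91. Of 2 T cell markers 1 was lower in mammary gland and 2 in liver, with 0 higher. Of 3 adipocyte markers 1 was lower in each organ, with 0 higher. The part of these markers was not tested.

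Mesenteric and omental adipose tissue did not differ past the rule in any of the 8 genes, where 1.41% of 4340 genes passed. The differences furthest from 0 were LDHA at -0.50 ± 0.09 and MDH1 at -0.47 ± 0.14, both lower in mesenteric adipose tissue and at places 160 and 184 from the lowest. ENO1 stood at -0.26 ± 0.06, PGK1 at -0.26 ± 0.08, MDH2 at -0.23 ± 0.03, PC at -0.09 ± 0.05, PDK4 at -0.06 ± 0.12 and TPI1 at 0.08 ± 0.06. The median of the 8 genes was -0.25, against -0.01 for all genes.

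The remaining measured genes of the pathway were counted by list, beside the shares of all genes past the rule. In the subcutaneous sample against visceral adipose tissue, these shares were 6.23% higher and 3.72% lower. There 2 of 9 genes of glucose entry and upper glycolysis were higher and 0 lower (median 0.41): HK3, a hexokinase, at 2.65 ± 0.03 and SLC2A1, the glucose transporter GLUT1, at 2.01-fold. Of 6 genes of lower glycolysis, ENO1 and GAPDH, which makes the substrate of PGK1, were higher (GAPDH 1.26 ± 0.04), and the other 4 did not pass (median 0.51). PKM, which forms pyruvate, stood at 0.60 ± 0.16 and PGAM1 at 0.42 ± 0.02. Among 3 genes of lactate and pyruvate exchange, LDHA was higher and BSG, the chaperone of lactate transporters, lower at -1.91 ± 0.01, while MPC2 of the mitochondrial pyruvate carrier stood at -0.27. In the list of the pyruvate dehydrogenase complex and its control, PDK4 was the 1 gene of 4 past the rule (median -0.49). The citric acid cycle had 0 of 11 genes past it (median -0.10). From the malate and aspartate shuttle list 1 of 6 genes was lower, ME1 at -1.32 ± 0.00, and 0 higher. PYGL, the liver form of glycogen phosphorylase and 1 of the 2 glycogen genes measured, was higher at 1.78 ± 0.05. Of 7 hypoxia response genes 1 passed, EPAS1, which was lower at -1.57 ± 0.08.

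Between mammary gland and visceral adipose tissue 3.29% of all genes were higher and 6.30% lower in mammary gland. Of 9 genes of glucose entry and upper glycolysis 1 was higher and 1 lower (median 0.07): SLC2A1 was higher by 1.97 ± 0.14 (3.91-fold) and ALDOA, the aldolase, lower at -1.71 ± 0.08. Lower glycolysis had 1 of 6 genes lower and 0 higher (median -0.62), which was PGAM1 at -1.36 ± 0.08, and lactate and pyruvate exchange 2 of 3 lower, LDHA and BSG (-1.81 ± 0.28). The citric acid cycle list had 4 of 11 genes lower and 0 higher (median -0.79), among them IDH2 at -1.95 ± 0.46 and SDHD at -1.18 ± 0.06. From the shuttle list 1 of 6 genes was lower and 0 higher. It was ME1, the cytosolic malic enzyme that follows MDH1 in making NADPH, at -1.70 ± 0.10, beside MDH1 at -0.90. From the pentose phosphate list 1 of 4 genes was lower, TKT at -2.30 ± 0.15, and 0 higher. EPAS1 was the 1 of 7 hypoxia response genes past the rule, lower at -1.84 ± 0.05. The median of all genes was -0.02.

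In liver against visceral adipose tissue 7.41% of all genes were higher and 5.96% lower in liver. From the shuttle list 2 of 6 genes were higher in liver, the aminotransferase genes GOT2 (2.22 ± 0.04) and GOT1 (1.56 ± 0.00), and 1 was lower, the malic enzyme gene ME1 at -2.13 ± 0.19, which is not a step of the shuttle itself. Of 6 genes of lower glycolysis 1 was higher in liver, GAPDH at 1.33 ± 0.06, and 0 lower. Of 9 genes of glucose entry and upper glycolysis 1 was lower, ALDOA at -2.22 ± 0.17, and 0 higher. In the citric acid cycle list 2 genes were higher, FH (1.55 ± 0.16) and SUCLG2 (1.48 ± 0.01), and 2 lower, CS (-2.29 ± 0.15) and SUCLA2 (-1.34 ± 0.10), of 11. In lactate and pyruvate exchange 1 of 3 genes was higher, MPC2 at 1.05 ± 0.12, and 0 lower. In the pentose phosphate list 1 gene was higher, PGLS (1.72 ± 0.07), and 2 lower, TKT (-2.27 ± 0.18) and TALDO1 (-1.51 ± 0.06), of 4. PYGL, 1 of the 2 glycogen genes measured, was higher at 2.72 ± 0.27. HIF1A, a hypoxia-inducible factor subunit, was the 1 of 7 hypoxia response genes past the rule, lower at -1.04 ± 0.04. Gluconeogenesis was seen through 2 of the 9 genes listed, of which PC is one, and neither passed (median 0.30).

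Against the subcutaneous sample HK3 was lower in both organs, at -3.01 ± 0.16 in liver and -2.77 ± 0.05 in mammary gland, among 3 and 2 genes lower of 9 for glucose entry and upper glycolysis, with 0 higher. Lower glycolysis had 2 of 6 genes lower in liver, PKM (-1.49 ± 0.58) and PGAM1 (-1.19 ± 0.09), and 3 of 6 lower in mammary gland, GAPDH (-2.05 ± 0.06), ENO1 and PGAM1 (-1.79 ± 0.10), with 0 higher in either. Of all genes 9.64% were lower and 7.98% higher in liver, and 10.3% lower and 3.60% higher in mammary gland. In lactate and pyruvate exchange BSG (1.52 ± 0.01) and MPC2 (1.32 ± 0.02) were higher in liver beside the lower LDHA, whereas LDHA was the 1 gene of 3 past the rule in mammary gland. The citric acid cycle list had 2 genes higher and 1 lower of 11 in liver, the lower one CS at -2.76 ± 0.23, and 0 higher and 3 lower in mammary gland. Those 3 were CS (-1.26 ± 0.23), OGDH (-1.06 ± 0.16) and IDH2 (-1.04 ± 0.95). For IDH2 the dye orientation error was nearly as large as the difference. GOT2 (2.37 ± 0.11) and GOT1 (1.61 ± 0.12) were higher in liver, 2 of 6 genes of the shuttle list, with 0 lower. In mammary gland 1 of those 6 was lower, ME2 at -1.16 ± 0.27, and 0 higher. The pentose phosphate list had 1 gene higher and 2 lower of 4 in liver, and 1 lower and 0 higher in mammary gland. Of 2 glycogen genes PYGL was lower in mammary gland (-1.88 ± 0.04), and 0 passed in liver. Of 7 hypoxia response genes HIF1A was lower in liver (-1.48 ± 0.10), and 0 passed in mammary gland.

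**Figure D4:**
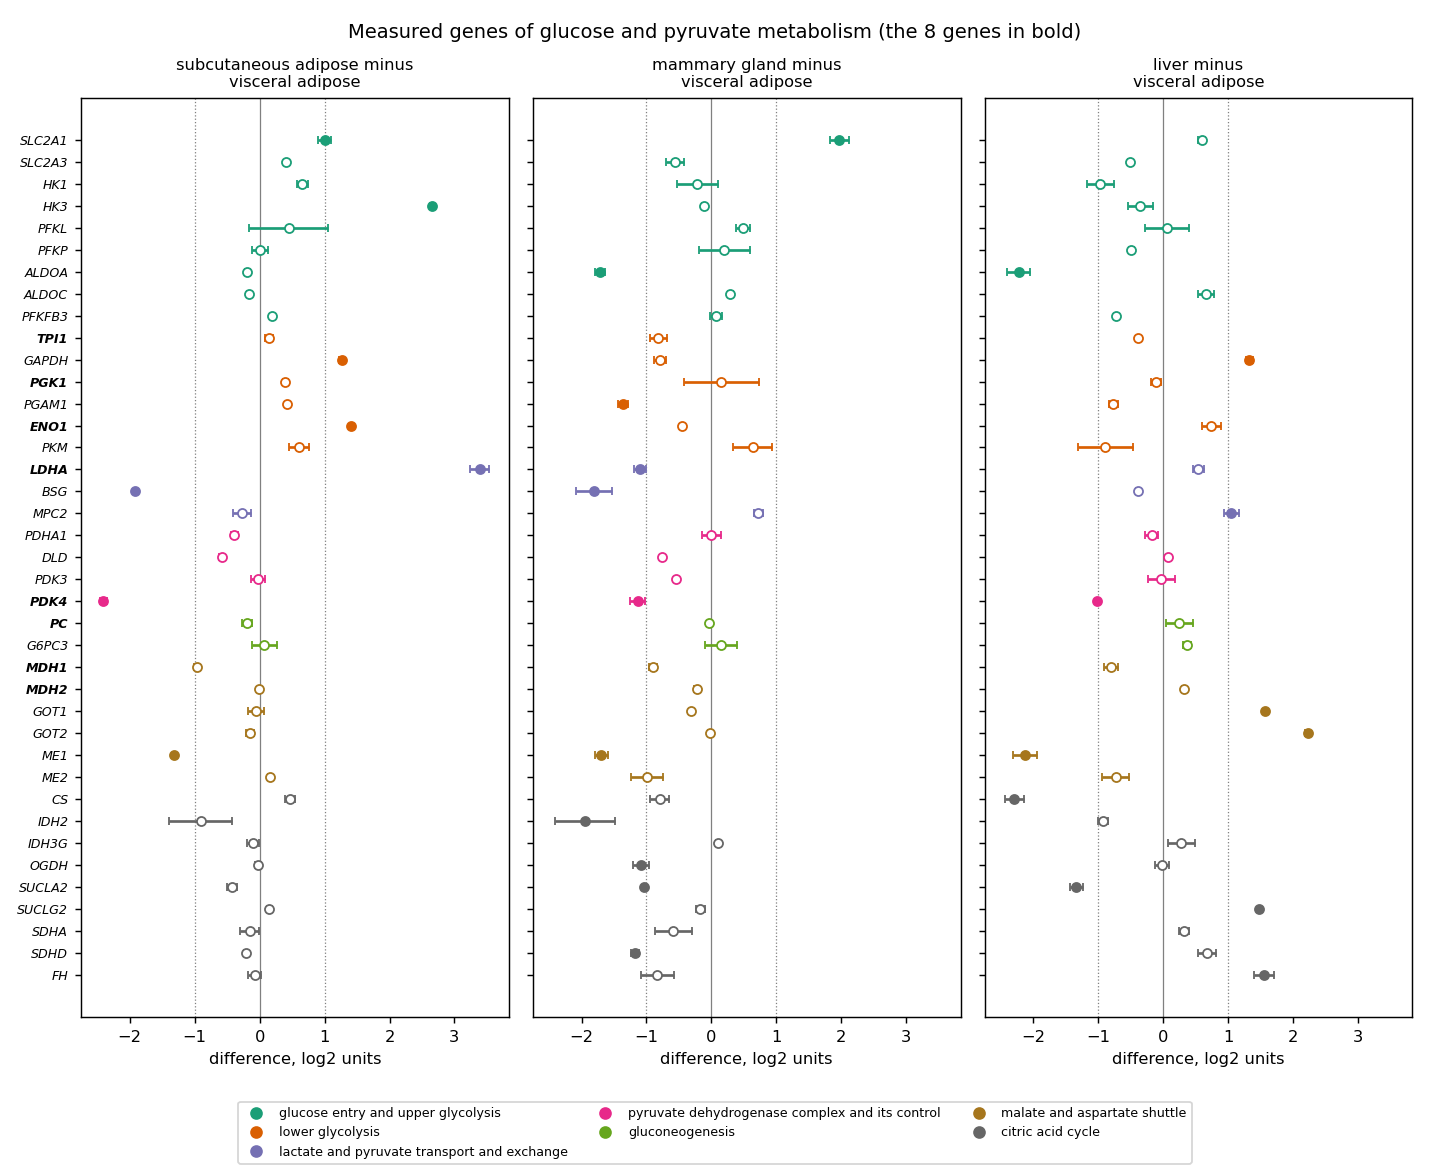
Difference in log2 units (horizontal axis) for the measured genes of glucose and pyruvate metabolism, grouped by pathway step and coloured by list, in 3 comparisons against visceral adipose tissue. Filled points passed the size rule and bars show the distance of either dye orientation from the mean. LDHA (3.39), HK3 (2.65), ENO1 (1.41) and GAPDH (1.26) lie to the right in subcutaneous adipose tissue, where PDK4 (-2.40), BSG (-1.91) and ME1 (-1.32) lie to the left.

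Genes with like profiles were sought for the 4 members whose means ranged over at least 1 log2 unit, by the root mean square difference over 10 arrays after each gene's own mean was removed. Closest to LDHA were ITGB2, an integrin subunit, at 0.36, CTSA, a lysosomal carboxypeptidase, at 0.36 and SLAMF7, a cell surface receptor, at 0.41, against a median of 1.55 over 4306 genes. ITGB2 stood at 3.37 in the subcutaneous sample and between -0.49 and 0.38 in the other tissues. Closest to ENO1 were TXN (thioredoxin) at 0.20, HMOX1 (heme oxygenase) at 0.21 and SCARB2 at 0.22, with a median of 0.74. TXN nearly overlaid ENO1 in level as well, at -2.33 in mammary gland and -0.09 in subcutaneous adipose tissue. Closest to PDK4 were MYLK (myosin light chain kinase) at 0.35, SPTBN1, a spectrin, at 0.35 and ARHGAP29 at 0.40, with a median of 0.98. MDH1 had MBD3 at 0.11, HSBP1 at 0.16 and NAB2 at 0.18, with a median of 0.58. No other of the 8 genes was among the 3 closest to any of these. The closest pair among the 8 was PC and MDH2, at 0.26, both nearly level. That value uses the mean of the 2 MDH2 clones, of which the first was not level.

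**Figure D5:**
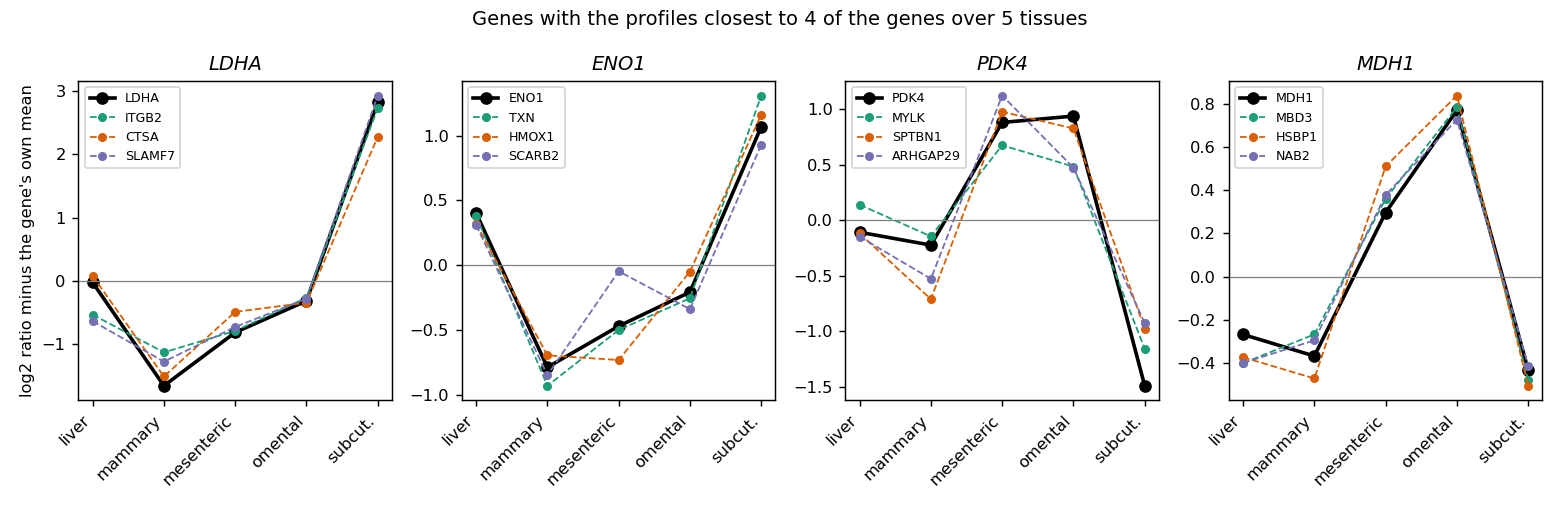
Mean log2 ratio over both arrays minus the gene's own mean over the tissues (vertical axis) for LDHA, ENO1, PDK4 and MDH1 (solid black) and the 3 genes closest to each (dashed) in 5 tissues. LDHA and its closest genes peak in subcutaneous adipose tissue, where PDK4 and MDH1 and theirs are lowest. The closest genes were chosen by likeness on these same arrays, so the shared shape is no separate result.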

How the data were processed

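The authors scanned the slides with a ScanArray 4000 and read them with GenePix 4.0, per the labels' protocols. The deposited values are log2 ratios of the dyes, a base inferred from their ceiling of 16.61, which on that base is close to a round ratio. The sources used here do not say how the authors corrected the background or normalised. Of all values 2402 were missing and 94, at the ceiling, were set to missing. Arrays with the tissue in Cy3 were negated and each array was centred on its median. Duplicate spots, then the elements of a gene, were averaged. Names were joined through 384-well plates: 576 annotation layouts were paired with 27648 table layouts on 681 clone pairs of shared genes (mean cosine 0.47). On 641 other pairs the chosen layout reached 0.46 (median 0.73) and the next different one 0.02. Symbols were updated through RefSeq (ARS-UCD2.0, 5467 of 5472 elements). Alternatives were no centring, quantile normalisation, keeping ceiling values, the median of elements, and leaving out either dye orientation or the omental Cy5 array, and the mean of 3 depots. The scripts ran in Python 3.11.15 and were tested on simulated data. All 8 genes were described. Genes of the fixed pathway lists could be named where past the size rule in a comparison and were otherwise counted, and the 3 closest profiles were named. The genes and lists were chosen with earlier results of these data known. Coordinates are not printed, because the build of the files is not given.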

Additional observations from a re-analysis of the deposited data

How the results depend on the processing

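The 13 differences past the size rule kept their direction under each of the 8 alternatives that applied to them. Without centring, 5 of them missed the rule and 5 others passed, so that the number of the 8 genes past the rule was 1 for liver against mammary gland, 0 for mammary gland against visceral adipose tissue and 4 for liver against subcutaneous adipose tissue. For liver against visceral adipose tissue that number was 2 after quantile normalisation, 0 without the omental Cy5 array, whose labels disagree on the dye of the reference, and 0 with the mean of 3 depots. For mammary gland against visceral adipose tissue it was 1 without that array and 1 with the mean of 3 depots, in which PDK4 stood at -0.33. Between liver and that mean PDK4 stood at -0.22, and LDHA, not past the rule, turned from 0.54 to -0.59. Dropping either dye orientation lost no call. Keeping the ceiling values, or taking the median of elements, changed no call. With 1 sample a tissue, and signal over background unknown, the 2 arrays limit the precision. No paired analysis was possible because the labels number no replicates and each tissue has 1 sample.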

Other observations

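Between liver and mammary gland 9.34% of all genes were higher and 4.44% lower in liver, or 303 and 301 of 4325 genes without centring. In the citric acid cycle list 5 of 11 genes were higher and 1 lower (median 0.91, against -0.01 for all genes). Those higher included FH, the fumarase, at 2.38 ± 0.42 log2 units and SDHD, a subunit of succinate dehydrogenase, at 1.85 ± 0.21, and CS, the citrate synthase, was lower at -1.50 ± 0.00. From the shuttle list the aminotransferase genes GOT2 (2.24 ± 0.07) and GOT1 (1.88 ± 0.01) were higher, 2 of 6 genes, with 0 lower, and the pyruvate dehydrogenase list had 0 of 4 past the size rule. Lower glycolysis was split, since GAPDH stood beside ENO1 on the liver side at 2.12 ± 0.16, whereas PKM was lower in liver at -1.53 ± 0.73. In lactate and pyruvate exchange 2 of 3 genes were higher in liver, LDHA and BSG (1.42 ± 0.26), and 0 lower. Of 9 genes of glucose entry and upper glycolysis 1 was lower, SLC2A1 at -1.37 ± 0.09, and 0 higher. Of the 7 hypoxia response genes EPAS1 was higher (1.15 ± 0.09) and NDRG1 lower (-1.65 ± 0.24). PYGL, 1 of the 2 glycogen genes measured, was higher in liver at 2.81 ± 0.36 (7.03-fold).

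Between mesenteric and omental adipose tissue EGLN1 alone of the pathway lists passed the size rule, at 1.32 ± 1.30, so that its dye orientation error was nearly as large as the difference.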
